A study of Homo sapiens with 17 samples.

Results

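The integrated stress response was followed through 10 of the 9699 transcripts measured by RNA-Seq and Ribo-Seq in human BJ fibroblasts. They are ATF4, DDIT3, ASNS, TRIB3, CHAC1, SESN2, PSAT1, PHGDH, SHMT2 and PPP1R15A. The genes were chosen by name, as the transcription factor ATF4, a set of its known targets and the phosphatase subunit that ends the response, and each matched exactly 1 transcript of the table. BJ cells are primary foreskin fibroblasts, here immortalised with hTERT, the catalytic subunit of telomerase, which every group carried.

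When a cell runs short of amino acids, accumulates unfolded proteins or meets other stresses, dedicated kinases phosphorylate the initiation factor eIF2 and protein synthesis slows in general. A few mRNAs escape, because short reading frames upstream of their coding sequence hold ribosomes back in unstressed cells and let them through when eIF2 is phosphorylated. ATF4 is the best known of these mRNAs. DDIT3 (also called CHOP) and PPP1R15A (also called GADD34) are controlled in a related way. The ATF4 protein then switches on genes for amino acid synthesis, amino acid transport and stress signalling, and PPP1R15A brings a phosphatase to eIF2 that closes the loop.

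The cells were studied in 5 states. Proliferating cultures grew under normal conditions and quiescent cultures were depleted of serum. Pre-senescent and senescent cultures carried a tamoxifen-inducible RASG12V, an oncogenic form of RAS, which 1e-07 M of 4-OHT-tamoxifen had switched on 5 days before in the first and 14 days before in the second. The study's methods do not say whether the proliferating and quiescent cultures carried this construct too. The cultures labelled transformed carried knockdowns of p16INK4A and p53 together with SV40 small T, and received RASG12V constitutively by retrovirus. Proliferating, quiescent and pre-senescent cultures were sequenced in a first run. A further proliferating culture, the senescent and the transformed cultures came from a second run, so each state was set against the proliferating column of its own run. The deposited table held 1 value per transcript, state, run and assay. In run 1 the authors had already joined the replicates of proliferation and quiescence, and of pre-senescence in RNA-Seq. No spread between replicates could therefore be computed and no p-value is given. The only repeated state was proliferation, measured once in each run.

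A pair of Ribo-Seq samples carried contradictory labels, since the one titled as senescent had the condition text of proliferation and the reverse. The columns went with the titles: MKI67, a marker of cycling cells, was at the floor of 1 FPKM in both senescence columns and at 43.0 FPKM in the Ribo-Seq column of proliferation in run 2. Of the genes targeted by the engineering, CDKN2A, which encodes p16INK4A, was not lower in RNA in the column labelled transformed (12.6 against 6.75 FPKM), whereas its Ribo-Seq level was (5.51 against 8.92 FPKM); elsewhere its RNA was 17.2 in proliferation of run 1, 30.6 in quiescence, 14.2 in pre-senescence and 27.9 in senescence. HRAS RNA was 312 FPKM in the column labelled transformed, below the 1284 and 2415 FPKM of the proliferating columns and the 1254, 2102 and 2087 FPKM of quiescence, pre-senescence and senescence. All 10 fibroblast markers examined were above the floor in every column, with a summed RNA level from 5152 FPKM in senescence to 7937 in proliferation of run 2. By the cut-off explained below, their RNA was nevertheless called lower for 6 of 10 in pre-senescence, 8 in senescence and 2 in the column labelled transformed, and higher for 2 in quiescence, 1 in the column labelled transformed and 5 in proliferation of run 2 against run 1. Their part in the differences of the stress genes was not tested. Of 5 epithelial markers, 3 were in the table (KRT8, KRT18 and KRT19), and their summed RNA level ranged from 105.1 FPKM in quiescence to 312.6 in proliferation of run 2. KRT19 RNA was 39.8 FPKM in proliferation of run 2 and between 1.00 and 4.43 in the other columns.

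Promoters of 9 of the 10 genes were in the RefSeq set used here (GRCh38.p14), in windows of 300 bases that reach from 250 bases before the annotated start to 50 after it. The core of the C/EBP-ATF response element, the composite site through which ATF4 and its C/EBP partners act, was searched as TGATGNAA on both strands. It was found for 2 of these 9 genes, ASNS and CHAC1, and for 4.46% of the 27305 genes with a window. Both stretches are shown because these are the genes with the element in the window and both were called in a comparison below, with the match in capitals, on the strand of the gene.
ASNS (chr7:97872443-97872502, minus strand): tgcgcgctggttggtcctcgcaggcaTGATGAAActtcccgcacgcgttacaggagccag
CHAC1 (chr15:40953236-40953295, plus strand): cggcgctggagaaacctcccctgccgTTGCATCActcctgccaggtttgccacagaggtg
In ASNS the match lay 68 bases before the start, and in CHAC1 it lay 209 bases before the start, in the reverse orientation. A match describes the letters in the window and not binding.

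Levels are given in FPKM, fragments per kilobase scaled to the size of the library, with all values below 1 set to 1 by the authors. RNA-Seq FPKM covered the whole transcript and Ribo-Seq FPKM only the coding sequence, so footprints on upstream reading frames were not part of the Ribo-Seq level. Translation efficiency (TE) is the log2 of the ratio of Ribo-Seq to RNA-Seq FPKM. A difference between 2 columns was called higher or lower when it passed a sliding cut-off, a fixed multiple of the local standard deviation among the transcripts nearest in level. The verbs "rose" and "fell" are kept for such calls.

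ATF4 was among the most abundant mRNAs and among the least efficiently translated. In run 1 its RNA level was 211 FPKM in proliferation, 306 in quiescence and 197 in pre-senescence, and in run 2 it was 131 in proliferation, 132 in senescence and 138 in the column labelled transformed. These levels placed ATF4 at or above the 94.2nd percentile of transcripts in every column. The Ribo-Seq level was 65.7 FPKM in proliferation, 44.0 in quiescence and 54.4 in pre-senescence in run 1, and 13.1, 15.4 and 20.2 FPKM in proliferation, senescence and the column labelled transformed in run 2. The run 1 columns were all above the run 2 columns in both assays. TE was -1.68 in proliferation, -2.80 in quiescence and -1.86 in pre-senescence in run 1, and -3.32, -3.09 and -2.78 in run 2, which put ATF4 between the 0.182th and 3.84th percentile of all transcripts. This was a low place in every state.

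DDIT3, a transcription factor that favours cell death when stress persists, was a moderately expressed mRNA with a low TE as well. Its RNA level was 20.0, 27.8 and 32.1 FPKM in proliferation, quiescence and pre-senescence in run 1, and 12.3, 37.5 and 17.9 FPKM in proliferation, senescence and the column labelled transformed in run 2. In Ribo-Seq it was at 9.92, 7.06 and 18.2 FPKM in run 1 and 4.02, 9.31 and 10.9 FPKM in run 2, in the same order. RNA was highest in senescence but Ribo-Seq was highest in pre-senescence. TE was -1.01, -1.98 and -0.82 in run 1 and -1.62, -2.01 and -0.72 in run 2, between the 1.60th and 16.4th percentile.

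PPP1R15A had the widest range of Ribo-Seq levels of these 3 mRNAs, 9.04-fold from the lowest to the highest column. Its RNA level was 84.1, 80.4 and 147 FPKM in proliferation, quiescence and pre-senescence, and 49.2, 79.5 and 73.6 FPKM in proliferation, senescence and the column labelled transformed of run 2. Ribo-Seq gave 33.1, 37.0 and 124 FPKM in run 1 and 13.7, 25.2 and 33.2 FPKM in run 2. Pre-senescence stood apart from the other 5 columns in both assays. TE was -0.25 there, at the 29.5th percentile, and between -1.84 and -1.12 elsewhere, at the 2.65th to 9.34th percentile.

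Among the stress effectors, TRIB3, a pseudokinase that restrains ATF4 and AKT, had an RNA level of 34.1, 54.2 and 30.7 FPKM in proliferation, quiescence and pre-senescence of run 1. In run 2 it was 7.49 in proliferation, 17.7 in senescence and 12.7 FPKM in the column labelled transformed. Its Ribo-Seq level was 29.8, 49.2 and 18.1 FPKM in run 1 and 7.16, 8.41 and 9.44 FPKM in run 2. Every run 2 column was lower than every run 1 column in both assays.

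CHAC1, an enzyme that degrades glutathione, was highest in quiescence. Its RNA level was 37.2, 95.9 and 38.0 FPKM in proliferation, quiescence and pre-senescence, and 24.8, 53.9 and 84.5 FPKM in proliferation, senescence and the column labelled transformed. In Ribo-Seq it was at 54.5, 148 and 44.9 FPKM in run 1 and 43.0, 39.6 and 86.5 FPKM in run 2. In senescence its RNA was above and its Ribo-Seq level below proliferation of the same run.

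SESN2, a sestrin that restrains mTORC1 and is also a target of p53, had an RNA level of 14.6, 27.4 and 14.5 FPKM in proliferation, quiescence and pre-senescence. In run 2 it was 8.24 in proliferation, 16.7 in senescence and 6.82 FPKM in the column labelled transformed. Ribo-Seq gave 15.5, 39.1 and 25.3 FPKM in run 1 and 7.06, 14.7 and 5.75 FPKM in run 2. Quiescence was highest and the column labelled transformed lowest in both assays.

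The 4 biosynthetic enzymes were translated at or above the median efficiency in most columns. ASNS, which makes asparagine, had an RNA level of 53.1, 68.4 and 28.0 FPKM in proliferation, quiescence and pre-senescence, and of 24.0, 30.5 and 13.2 FPKM in proliferation, senescence and the column labelled transformed. Its Ribo-Seq level was 89.4, 106.5 and 27.2 FPKM in run 1 and 45.0, 45.1 and 26.3 FPKM in run 2. Pre-senescence and the column labelled transformed were the lowest Ribo-Seq columns for ASNS.

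PHGDH catalyses the first step of serine synthesis from a glycolytic intermediate, and it varied most of the 10 genes. Its RNA level was 156, 225 and 88.3 FPKM in proliferation, quiescence and pre-senescence, and 47.5, 14.8 and 43.9 FPKM in proliferation, senescence and the column labelled transformed. In Ribo-Seq it was at 289, 465 and 102 FPKM in run 1 and 86.7, 17.1 and 76.9 FPKM in run 2. From senescence to quiescence this was a range of 15.2-fold in RNA and 27.2-fold in Ribo-Seq, between columns of different runs.

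PSAT1, the aminotransferase of the next step, had an RNA level of 76.0, 89.4 and 34.9 FPKM in run 1 and 36.9, 21.8 and 24.3 FPKM in run 2, in the same order of states. Ribo-Seq gave 162, 184 and 45.3 FPKM in run 1 and 70.8, 36.3 and 42.9 FPKM in run 2. SHMT2, the mitochondrial enzyme that passes a carbon of serine to folate, kept to a narrower range of RNA, from 54.8 FPKM in senescence to 111 in quiescence, and its Ribo-Seq level ran from 51.4 in senescence to 169 in proliferation of run 1. Of the 10 genes, 8 had their highest RNA level in quiescence, a run 1 column. The lowest RNA level was in proliferation of run 2 for 5 genes and in the column labelled transformed for 2. It was in senescence for 3, PSAT1, PHGDH and SHMT2, with SHMT2 near its own proliferating column (54.8 against 56.5 FPKM). These rankings cross runs, and all 10 genes were lower in proliferation of run 2 than of run 1.

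**Figure D1:**
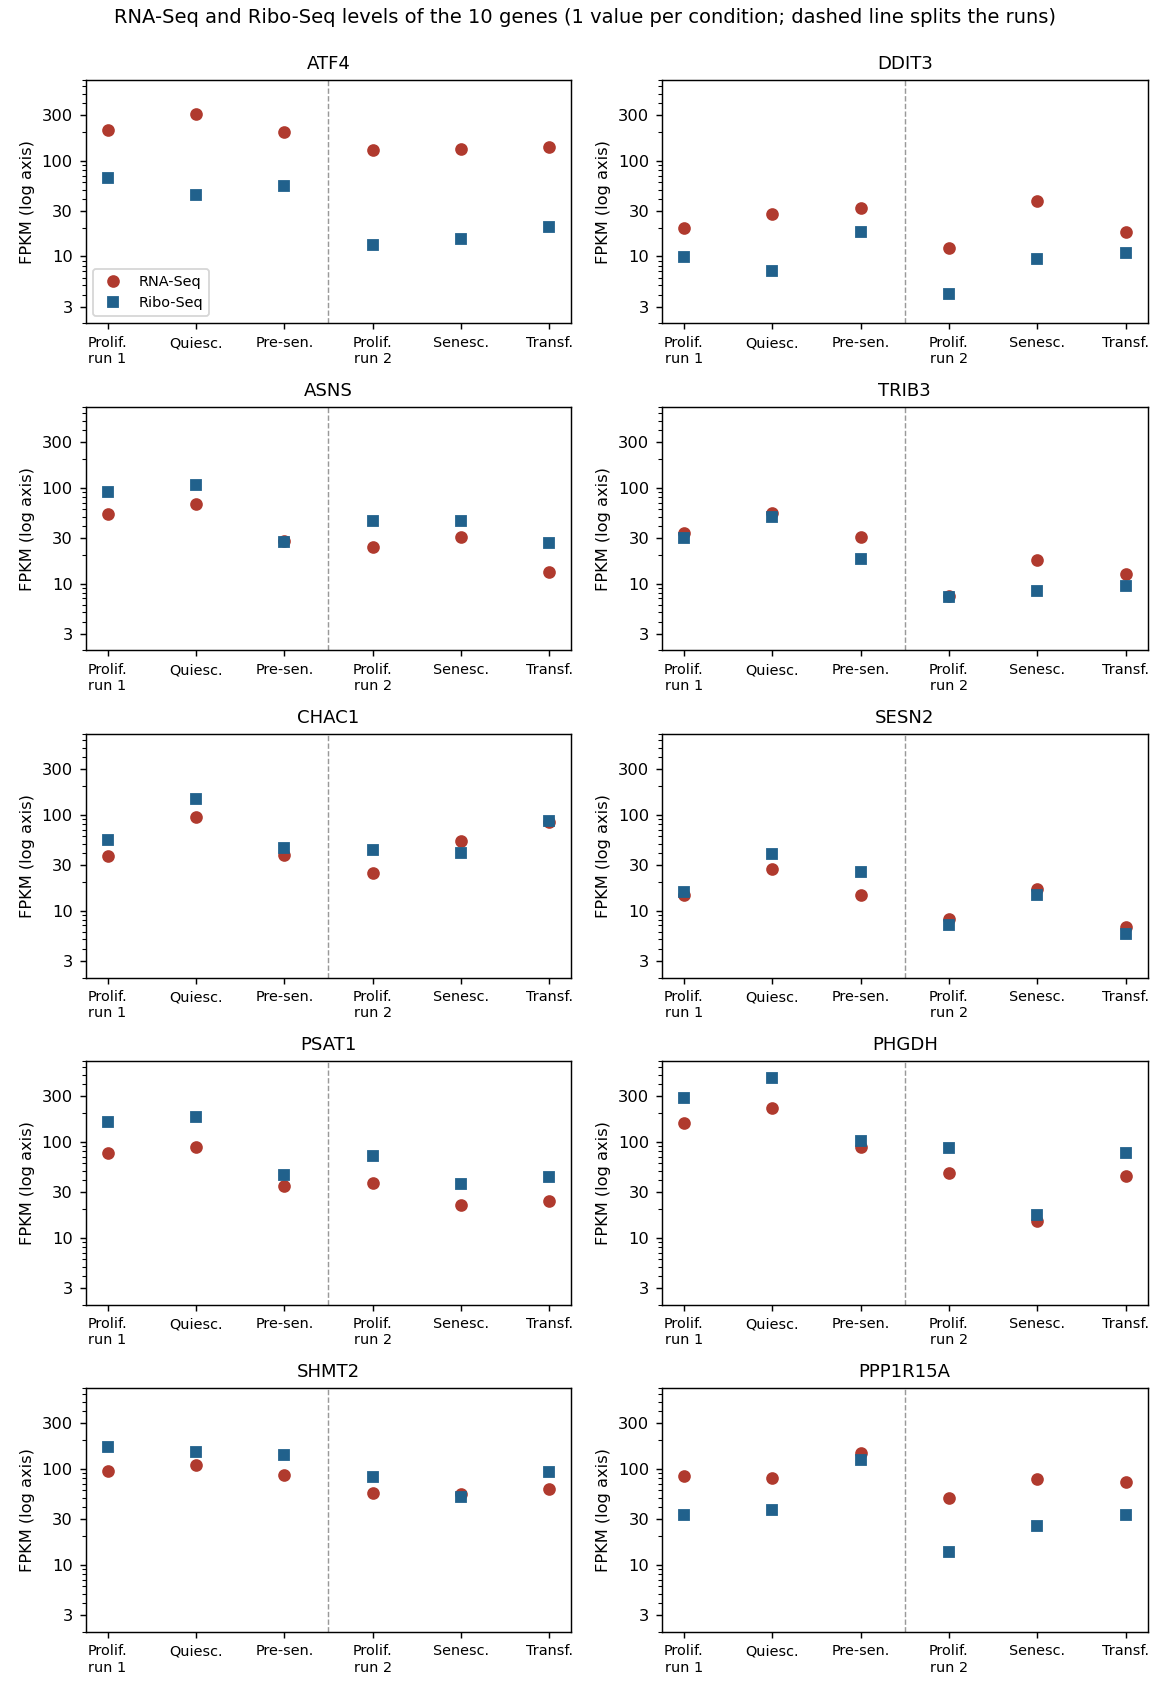
RNA-Seq (red circles) and Ribo-Seq (blue squares) levels in FPKM on a log axis, 1 panel per gene and 1 value per column, with run 1 left and run 2 right of the dashed line. RNA of 8 of the 10 genes peaks in quiescence, and the PHGDH points in senescence (14.8 and 17.1 FPKM) are its lowest.

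The proliferating columns of the 2 runs differed for all 10 genes in the same direction. Run 2 was lower than run 1 by 1.50-fold (CHAC1) to 4.55-fold (TRIB3) in RNA and by 1.27-fold (CHAC1) to 5.02-fold (ATF4) in Ribo-Seq. The sliding cut-off called 4 genes lower in RNA (ASNS, TRIB3, PSAT1 and PHGDH), where 2.71% of all transcripts were, and 5 lower in Ribo-Seq (ATF4, TRIB3, PSAT1, PHGDH and PPP1R15A), where 2.82% were. In TE only ATF4 was called lower, by 1.64 on the log2 scale, where 3.13% of transcripts were. The median log2 difference over the 10 genes was -0.80 in RNA and -1.23 in Ribo-Seq, whereas over all transcripts tested it was -0.06 and -0.01. These columns differed in culture, in run and, per the study's methods, in paired against single-end RNA reads, which cannot be told apart. The summed epithelial markers also differed between them (197.5 against 312.6 FPKM of RNA), and their part in the result was not tested. This gap is the only measure of how far the genes vary within 1 state, and since it also holds the difference between runs, it is given beside the calls below as a comparison and not as a threshold.

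In quiescence, CHAC1 rose and ATF4 was translated less efficiently. CHAC1 rose 2.58-fold in RNA and 2.72-fold in Ribo-Seq, and SESN2 rose 2.53-fold in Ribo-Seq. The RNA of SESN2 had a log2 difference of 0.91, just short of its cut-off of 0.94. Its TE difference of 0.42 was not called. ATF4 TE fell by 1.12 on the log2 scale, against a cut-off of 0.64, with a log2 difference of 0.54 in RNA and -0.58 in Ribo-Seq, neither of which was called. DDIT3 moved in parallel without passing the cut-off, with log2 differences of 0.47 in RNA, -0.49 in Ribo-Seq and -0.96 in TE. PPP1R15A TE did not share that direction, at a log2 difference of 0.22.

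In RNA 1 of the 10 genes was called higher and 0 lower in quiescence, where 4.66% and 3.23% of all transcripts were, but 9 of 10 lay above the proliferating column, PPP1R15A being the exception. Over the 10 genes the median log2 difference was 0.50, against -0.01 over all transcripts tested. In Ribo-Seq 2 genes were called higher and 0 lower, where 4.31% and 3.35% of transcripts were, with a median of 0.22 against -0.07. In TE 0 were called higher and 1 lower, where 2.65% and 5.73% of transcripts were. By a plain 2-fold criterion 1 gene was called in RNA (6.53% of transcripts), 2 in Ribo-Seq (17.5%) and 1 in TE (7.06%). Quiescent RNA levels lay above those of both proliferating columns for 9 genes and Ribo-Seq levels for 7. Since run 2 proliferation was the lower column for all 10 genes, these counts only restate the comparison with run 1. The fall of ATF4 TE was lost against the mean of both controls, because its quiescent value lay between theirs.

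In pre-senescence, after 5 days of RAS, the amino acid enzymes fell and PPP1R15A rose. PSAT1 fell 2.18-fold in RNA and 3.57-fold in Ribo-Seq, ASNS fell 1.89-fold and 3.29-fold, and PHGDH fell 1.76-fold and 2.83-fold. SHMT2, which belongs to the same group of enzymes, gave log2 differences of -0.16 and -0.27, neither called. PPP1R15A rose by 0.81 in RNA, 1.91 in Ribo-Seq (3.75-fold) and 1.10 in TE on the log2 scale. DDIT3 rose 1.61-fold in RNA, with a log2 difference of 0.69 that barely exceeded the cut-off of 0.68. ATF4 itself had log2 differences of -0.10 in RNA, -0.27 in Ribo-Seq and -0.17 in TE.

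In RNA 2 genes were called higher and 3 lower in pre-senescence, where 3.19% and 3.55% of all transcripts were. In Ribo-Seq 1 was called higher and 3 lower, where 2.54% and 4.97% were. In TE 1 was called higher and 0 lower, where 2.00% and 6.91% were. The median log2 difference of the genes was -0.12, -0.28 and -0.24 in RNA, Ribo-Seq and TE, against 0.04, -0.12 and -0.15 over all transcripts tested. Against the mean of both controls the RNA and Ribo-Seq medians turned to 0.28 and 0.28. By the 2-fold criterion 1 gene was called in RNA (3.87% of transcripts), 4 in Ribo-Seq (17.9%) and 1 in TE (13.2%). The RNA calls of ASNS, PHGDH and PSAT1 and the Ribo-Seq call of PHGDH were lost against the mean of both controls, where the log2 difference of PHGDH RNA became 0.04. The RNA call of DDIT3 was lost when the columns were rescaled, and it, like those of ASNS, PHGDH and PPP1R15A, did not reach 2-fold.

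In senescence, after 14 days of RAS, PHGDH fell and DDIT3 mRNA rose. PHGDH fell 3.21-fold in RNA and 5.07-fold in Ribo-Seq, and both levels were below those of every other column. The log2 difference of -1.68 in RNA was close to the -1.71 between the proliferating columns, and that of -2.34 in Ribo-Seq was beyond their -1.74. DDIT3 rose 3.04-fold in RNA, with a log2 difference of 1.60 and a cut-off of 1.50, while its Ribo-Seq level was 2.32 times that of proliferation (log2 difference 1.21) without passing a cut-off of 2.51. CHAC1 TE fell by 1.24 on the log2 scale, with a log2 difference of 1.12 in RNA and -0.12 in Ribo-Seq. TRIB3 showed the same shape without a call, with log2 differences of 1.24, 0.23 and -1.01 in RNA, Ribo-Seq and TE. ATF4 had log2 differences of 0.01, 0.23 and 0.23.

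In RNA 1 gene was called higher and 1 lower in senescence, where 2.34% and 5.38% of all transcripts were. In Ribo-Seq 0 were called higher and 1 lower, where 2.57% and 5.42% were, and in TE 0 higher and 1 lower, where 2.38% and 4.81% were. The cut-offs were wide in this comparison, and a 2-fold criterion called 5 genes in RNA, namely DDIT3, TRIB3, CHAC1 and SESN2 higher and PHGDH lower, where 20.4% of transcripts passed it. The same criterion called 3 genes in Ribo-Seq (28.0% of transcripts) and 2 in TE (8.55%). Over the 10 genes the median log2 difference was 0.52 in RNA, 0.12 in Ribo-Seq and -0.37 in TE, against -0.02, -0.12 and -0.04 over all transcripts tested. Against the mean of both controls the medians were -0.04 in RNA and -0.64 in Ribo-Seq, so their direction depended on the control. The RNA call of DDIT3 was lost against the mean of both controls and with a floor of 5 FPKM.

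In the cultures labelled transformed, CHAC1 mRNA rose, PPP1R15A rose in Ribo-Seq and DDIT3 rose in TE. CHAC1 rose 3.40-fold in RNA, and its TE fell by 0.76 on the log2 scale. PPP1R15A rose 2.42-fold in Ribo-Seq, with a log2 difference of 0.58 in RNA. DDIT3 TE rose by 0.90 on the log2 scale, and its Ribo-Seq level had a log2 difference of 1.44 with a cut-off of 1.56. ATF4 TE had a log2 difference of 0.54 and PPP1R15A TE one of 0.69, with cut-offs of 0.68 and 0.70. ASNS and PSAT1 had log2 differences of -0.87 and -0.60 in RNA, without a call.

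In RNA 1 gene was called higher and 0 lower in the column labelled transformed, where 2.98% and 3.17% of all transcripts were. In Ribo-Seq 1 was called higher and 0 lower, where 2.63% and 3.81% were, and in TE 1 higher and 1 lower, where 2.26% and 5.92% were. By the 2-fold criterion 1 gene was called in RNA (10.4% of transcripts), 3 in Ribo-Seq (12.8%) and 0 in TE (2.69%). The median log2 difference of the genes was 0.11, 0.29 and 0.01 in RNA, Ribo-Seq and TE, against 0.09, 0.01 and -0.07 over all transcripts tested. All 3 turned against the mean of both controls, to -0.30, -0.58 and -0.13. The calls of PPP1R15A in Ribo-Seq and of DDIT3 in TE were lost against the mean of both controls. With a floor of 5 FPKM the PPP1R15A call was lost too. DDIT3 TE was not tested with that floor, since its Ribo-Seq level in proliferation of run 2 was 4.02 FPKM. The TE calls of CHAC1 and DDIT3 did not reach 2-fold.

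Over these 4 comparisons and 3 measures, 22 values of the genes were called, of which 18 lay outside the range of both proliferating columns on the same side. The exceptions were ATF4 TE in quiescence and, in pre-senescence, ASNS RNA and both levels of PHGDH. In RNA and Ribo-Seq, proliferation of run 1 was above that of run 2 for every gene. A call higher in run 1 or lower in run 2 was therefore outside that range by construction. PPP1R15A TE in pre-senescence was in the same position. For such calls the range is not a separate check. Of the 22, 16 were larger in size than the gap between the proliferating columns for the same gene and measure. Some were larger only narrowly. PPP1R15A in Ribo-Seq in the column labelled transformed had a log2 difference of 1.273 beside a gap of -1.270. In pre-senescence RNA the values were 0.81 beside -0.77 for PPP1R15A and -1.12 beside -1.04 for PSAT1. The 6 that were smaller were those 4 exceptions, DDIT3 RNA in pre-senescence and PHGDH RNA in senescence. Quiescence and pre-senescence shared a control, as did senescence and the column labelled transformed, so the comparisons in each pair are not independent.

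States of the same run were also compared directly, without the control. Between pre-senescence and quiescence, 4 of the 10 genes were called in RNA (6.66% of all transcripts in either direction), 7 in Ribo-Seq (7.01%) and 5 in TE (8.03%). The 4 RNA calls, ASNS, CHAC1, PSAT1 and PHGDH, were all lower in pre-senescence, by 1.29 to 1.36 on the log2 scale. The 3 upstream-frame mRNAs were all called higher in TE in pre-senescence than in quiescence, with log2 differences of 0.94 for ATF4, 1.16 for DDIT3 and 0.88 for PPP1R15A. Against proliferation these mRNAs differed in TE by -0.17, 0.19 and 1.10 in pre-senescence, where only PPP1R15A was called. In quiescence they differed by -1.12, -0.96 and 0.22, where only ATF4 was called. PSAT1 and PHGDH were called lower in TE in pre-senescence than in quiescence, by 0.67 and 0.84. Between the column labelled transformed and senescence, 1 gene was called in RNA (8.00% of transcripts), 1 in Ribo-Seq (7.53%) and 1 in TE (6.97%). PHGDH was higher in the column labelled transformed, by 1.57 in RNA and 2.17 in Ribo-Seq on the log2 scale. DDIT3 TE was higher by 1.29, with a log2 difference in RNA of -1.07 that was not called.

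The other genes of the pathway were taken from fixed lists. Their RNA calls stand beside shares of all transcripts called higher and lower of 4.66% and 3.23% in quiescence, 3.19% and 3.55% in pre-senescence, 2.34% and 5.38% in senescence, and 2.98% and 3.17% in the column labelled transformed, so 1 call in a list of this size is near the background. Among 19 sensors and components of the eIF2 machinery, which include the eIF2 kinases and the subunits of eIF2 and eIF2B, 0 were called in RNA in quiescence, senescence or the column labelled transformed, and 1, DNAJC3, was called higher in pre-senescence. In TE the shares of all transcripts called lower were 5.73%, 6.91%, 4.81% and 5.92% in the same order of states. Near those shares, 1 of 19 was called lower in quiescence, 1 in pre-senescence, 0 in senescence and 1 in the column labelled transformed. They were IMPACT, an inhibitor of the kinase GCN2, by 1.18 on the log2 scale in quiescence, EIF2B3, a subunit of the eIF2 exchange factor, by 0.95 in pre-senescence, and PPP1CA, a catalytic subunit of the phosphatase recruited by PPP1R15A, by 0.63 in the column labelled transformed. DNAJC3, known as an inhibitor of some eIF2 kinases, had a log2 difference of 0.67 in RNA in pre-senescence. In Ribo-Seq 1 of 19 was called lower in pre-senescence, where 4.97% of all transcripts were, and 0 in the other comparisons with proliferation. It was EIF2AK2 (also called PKR), an eIF2 kinase, at 18.2 FPKM against 40.0 in proliferation, and it was named after its values were seen.

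Of 11 further mRNAs with upstream-frame control, 8 were in the table. ATF5, a relative of ATF4, had an RNA level of 22.4 to 38.0 FPKM and a TE of -2.40 to -4.46, lower than that of ATF4 in 3 of the 6 columns. Its TE fell by 1.89 on the log2 scale in senescence, where the Ribo-Seq level was 1.43 FPKM, close to the floor. SLC7A1, an arginine transporter, lay at the other end with a TE of 2.03 to 3.35, and its TE rose by 1.32 in pre-senescence. ATF3, a stress-induced transcription factor, had a TE that fell by 2.21 on the log2 scale in pre-senescence. Its RNA level was 10.4 FPKM in senescence, without a call, and 1.63 to 2.31 FPKM in the other columns, close to the floor. In TE in pre-senescence 1 of the 8 was called higher and 1 lower, where 2.00% and 6.91% of all transcripts were.

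Among 19 partners and downstream regulators of ATF4, the RNA calls were 4 higher and 0 lower in quiescence, 2 higher and 4 lower of 18 tested in pre-senescence, 2 higher and 1 lower in senescence, and 1 higher and 1 lower in the column labelled transformed. GDF15, a secreted stress cytokine that p53 also controls, had an RNA level of 163 FPKM in senescence and 5.47 in proliferation of the same run, a rise of 29.8-fold. NUPR1, a small stress-induced chromatin protein, rose 2.61-fold in quiescence, from 28.0 to 73.2 FPKM of RNA, and was at the floor in the column labelled transformed, at least 29.6-fold lower than the 29.6 FPKM of proliferation. CEBPG, a dimerisation partner of ATF4, had a Ribo-Seq level of 1.48 FPKM in pre-senescence and of 13.6 to 28.6 FPKM in the other columns, while its RNA stayed between 6.56 and 14.1 FPKM. The median log2 difference of this list in RNA was 0.60 in quiescence, -0.07 in pre-senescence, 0.45 in senescence and 0.09 in the column labelled transformed.

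Of 11 amino acid transporters, 10 were tested. In RNA 2 were called higher in quiescence, 3 lower in pre-senescence, 0 in senescence, and 1 higher and 1 lower in the column labelled transformed. SLC6A9, a glycine transporter, was at 12.1 FPKM of RNA in proliferation, 22.9 in quiescence and 3.42 in pre-senescence. SLC1A4, which carries serine and other neutral amino acids, was at 9.19, 16.6 and 2.79 FPKM in the same columns. Both therefore lay above proliferation in quiescence and below it in pre-senescence, and all 4 differences were called. SLC7A11, the cystine transporter that feeds glutathione synthesis, rose in Ribo-Seq from 29.2 FPKM in proliferation of run 2 to 138 in senescence and 117 in the column labelled transformed.

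Of 18 further enzymes of amino acid and one-carbon metabolism, 16 were tested in RNA. The calls were 1 higher and 1 lower in quiescence, 0 higher and 4 lower in pre-senescence, 0 higher and 2 lower in senescence, and 0 higher and 1 lower in the column labelled transformed. TYMS, which makes thymidylate and is known as a gene of cycling cells, was among the 2 lower in senescence, with an RNA level of 6.83 FPKM against 75.9. PSPH, the last enzyme of serine synthesis, had a Ribo-Seq level of 5.43 FPKM in pre-senescence against 27.8 in proliferation, with a TE lower by 2.15 on the log2 scale. ALDH1L2, a mitochondrial folate enzyme, rose 2.32-fold in RNA in quiescence and fell 3.29-fold in the column labelled transformed. Of 13 cytosolic tRNA synthetases known as ATF4 targets, 0 were called in RNA, Ribo-Seq or TE in any of the 4 comparisons, and their median log2 difference in RNA was 0.27 in quiescence, 0.02 in pre-senescence, 0.48 in senescence and 0.01 in the column labelled transformed.

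The Ribo-Seq profile of ATF4 over the 6 columns was most like those of FAM98C, EPN1, C19orf52, C20orf27 and PFDN6, with Pearson correlations of 0.99, 0.99, 0.99, 0.98 and 0.98 among 6052 other transcripts of at least 5 FPKM in every Ribo-Seq column. All 5 were higher in the 3 columns of run 1 than in the 3 of run 2, as was ATF4, which is the split between runs. Of the other genes studied, SHMT2 came closest to ATF4, with a correlation of 0.90 and rank 156, and CHAC1 was the farthest, with 0.29 and rank 2106. DDIT3 fell below 5 FPKM in one column and was not ranked. These correlations over 6 columns are descriptions, since the columns share runs.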

How the data were processed

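Expression was measured in 9 RNA-Seq and 8 Ribo-Seq samples. The authors aligned reads with Bowtie (version not given in the sources used here) to 1 Ensembl transcript per gene, with hg19 as the build in the submitters' processing notes, and deposited FPKM values per transcript, 1 column per state, run and assay, with values below 1 set to 1. Of 12 columns, 5 join replicates, by a method not given in the sources used here. Columns of samples outside this series numbered 0. The deposited FPKM values hold no read counts, and read totals of the libraries were not used here, so no counting interval was computed. Columns were mapped to samples by their titles.

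Log2 differences and TE were computed in Python 3.11.15 (pandas 2.3.3, numpy 2.4.6). Transcripts at the floor in both columns were not tested, and TE required both levels above the floor. The cut-off of 1.75 local standard deviations follows the study's methods, the window of 501 transcripts was chosen here, and the step was tested on simulated data. With no replicate columns, no p-value was computed. The genes, gene lists and tests were chosen with earlier results of these data known. At most 4 genes were named per list, those with the largest called differences in RNA or TE, and all 10 stress genes were described. EIF2AK2 was named in addition, for its Ribo-Seq call. Alternatives were a 2-fold cut-off, a floor or filter of 5 FPKM, a pseudocount of 1, median and upper-quartile scaling, and the mean of both proliferating columns as control. Some items are not reported here.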

Additional observations from a re-analysis of the deposited data

How the results depend on the processing

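Of the 22 calls of the 10 genes, 22 were kept with a pseudocount of 1, 22 with a filter of 5 FPKM, 21 with median-centred columns, 21 with upper-quartile scaling, 19 with a floor of 5, 16 with a 2-fold cut-off and 14 against the mean of both proliferating columns. DDIT3 TE in the column labelled transformed was not tested with the floor of 5 and is counted among the calls not kept. The mean of both controls added 16 calls and the 2-fold cut-off 8. The mean of both controls mixes runs. As run 2 proliferation was lower for all 10 genes in RNA and Ribo-Seq, this mean raises their differences in run 1 and lowers those in run 2. The direction of these shifts in RNA and Ribo-Seq thus follows from the calculation. What set the proliferating columns apart was not tested. The log2 difference of PHGDH RNA in pre-senescence changed sign against the mean of both controls, to 0.0382.

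Against the mean of both controls the number of called genes became 6 in quiescence, 3 in pre-senescence, 1 in senescence and 4 in the column labelled transformed for RNA, 4 in quiescence and 3 in the column labelled transformed for Ribo-Seq, and 0 in quiescence and 1 in the column labelled transformed for TE. With this control 7.08%, 6.70%, 7.90% and 6.52% of all transcripts were called in RNA in these states, 7.32% and 6.58% in the Ribo-Seq comparisons and 8.22% and 7.71% in the TE comparisons named. The median log2 difference then became -0.58 for Ribo-Seq in the column labelled transformed and -0.63 for TE in senescence. The median changed sign in RNA and Ribo-Seq for pre-senescence (0.28 in both), senescence (-0.04 and -0.64) and the column labelled transformed (-0.30 and -0.58), and in TE for quiescence (-0.03) and the column labelled transformed (-0.13). In quiescence it stayed above 0 in RNA (0.91) and Ribo-Seq (0.79), which the lower run 2 control made certain. With the 2-fold cut-off the number became 1 in pre-senescence and 5 in senescence for RNA, 3 in senescence and 3 in the column labelled transformed for Ribo-Seq, and 2 in senescence and 0 in the column labelled transformed for TE. With a floor of 5 it became 1 for RNA in senescence and 0 for Ribo-Seq in the column labelled transformed. In TE that floor gave 2 in quiescence and 3 of the 9 genes still tested in senescence. In TE a pseudocount of 1 gave 2 in quiescence and 2 in senescence, and a filter of 5 gave 2 in senescence. Upper-quartile scaling gave 2 for RNA in quiescence. Shares of all transcripts called are not given for the floor, pseudocount, filter and scaling settings. These counts therefore have no background beside them and are not read as a result about the genes. The median TE difference in pre-senescence became -0.10 with median-centred columns and -0.0405 with upper-quartile scaling.

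No paired analysis was possible because the columns join the numbered replicates or hold single samples, and leaving out a replicate could not be run for the same reason. Counting limits were not set, since the FPKM values hold no read counts and library totals were not used here. A difference in 1 column per state has no replicate check.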

Other observations

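Targets of p53 were examined beside the stress genes, since SESN2 belongs to both groups. Of 15 listed, 13 were tested in RNA. In quiescence 3 were called higher and 0 lower, in pre-senescence 0 higher and 1 lower, in senescence 3 higher and 0 lower, and in the column labelled transformed 0 higher and 2 lower. Of all transcripts, 4.66% and 3.23% were called higher and lower in quiescence, 3.19% and 3.55% in pre-senescence, 2.34% and 5.38% in senescence, and 2.98% and 3.17% in the column labelled transformed. The median log2 difference was 0.46, 0.35, 0.80 and -0.68 in these states. CDKN1A, the p21 inhibitor of cell-cycle kinases, had an RNA level of 814 FPKM in senescence against 172 in proliferation of the same run. GADD45A, a growth-arrest gene, rose by 1.65 on the log2 scale in senescence, and TP53INP1 rose by 1.88 in quiescence. BTG2, an antiproliferative gene, fell by 2.11 in the column labelled transformed.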
